A study of Homo sapiens with 2 samples.

Results

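The genes described are 10 plasma membrane amino acid transporters of the solute carrier (SLC) families: SLC7A5, SLC3A2, SLC7A11, SLC7A1, SLC7A6, SLC1A4, SLC1A5, SLC38A1, SLC38A2 and SLC6A9. They were taken by symbol from a table of 38637 genes, and all 10 were found. The data were RNA-seq libraries from H1299, an established human non-small cell lung cancer line. There were 2 libraries, 1 per group. The control is labelled wild type with no treatment, although its title ends in nc, and the other is labelled wild type with PHF12 knockdown, with a title that carries the prefix si. PHF12 is a PHD finger protein of a Sin3 and histone deacetylase corepressor complex, and the study asks how it acts on HDAC1 and on EGFR and AKT signalling. Neither the sequence of the silencing agent nor any agent given to the control cells is stated in the sources used here. What PHF12 does, what the silencing procedure does and how any pair of cultures varies cannot be told apart in the values below.

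Amino acid transporters work in linked steps. The sodium-coupled SLC38A1 and SLC38A2 bring small neutral amino acids such as glutamine into the cell, and the exchangers SLC1A5 and SLC1A4 trade neutral amino acids across the membrane with sodium. SLC7A5, SLC7A6 and SLC7A11 are light chains that reach the membrane bound to the heavy chain SLC3A2 (CD98). SLC7A5 exchanges internal glutamine for leucine and other large neutral amino acids, SLC7A6 exchanges cationic against neutral amino acids, and SLC7A11 imports cystine in exchange for glutamate. SLC7A1 carries arginine and lysine on its own, and SLC6A9 takes up glycine with sodium and chloride. Several of these genes are known targets of the transcription factor ATF4, which is translated when amino acids are scarce and binds composite C/EBP-ATF response elements.

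The total count was 24740581 for the control and 26084594 for the knockdown. PHF12 itself had 947 counts (11.4 TPM) in the control and 756 counts (8.71 TPM) in the knockdown library, a level of 0.753 times the control (95% counting interval 0.683 to 0.829). Of the lung and epithelial markers, SFTPC, SCGB1A1 and CDH1 were at 0 counts in both libraries, while the keratins KRT8 and KRT18 were abundant and EPCAM was near 0, at 1.38 and 1.74 TPM. Of the mesenchymal markers, VIM, an intermediate filament gene, reached 5349 and 4876 TPM (log2 ratio −0.16), CDH2 24.4 and 28.7 TPM (0.21) and ZEB1 17.2 and 17.4 TPM (−0.01). The leukocyte markers summed to 1.20 TPM in the control and 1.17 TPM in the knockdown library, with PTPRC and CD3E at 0, the endothelial markers to 1.12 and 1.23 TPM, and the fibroblast markers to 0.995 and 1.22 TPM, with LUM at 0.

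Promoter windows were read for the transporters because genes that share a response element can be compared with those that do not. RefSeq windows of GRCh38.p14, from 250 bases before to 50 bases after an annotated start, were found for 9 of the 10 genes (15 windows), SLC7A11 being the gene without one. The element searched was TGATGNAA on either strand (TTNCATCA on the other), a core of the C/EBP-ATF response element. It was found in 5 of the 15 windows, 1 each of SLC1A4, SLC1A5, SLC38A1, SLC3A2 and SLC7A1, and in 3.62% of all 35116 windows. The matches are shown with their surroundings as 30 bases of the gene's own strand, 5′ to 3′, with the matched letters in capitals:
SLC1A4: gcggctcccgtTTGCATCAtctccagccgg
SLC3A2: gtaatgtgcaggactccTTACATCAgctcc
SLC7A1: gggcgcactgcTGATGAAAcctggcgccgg
SLC1A5: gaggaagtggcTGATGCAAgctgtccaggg
SLC38A1: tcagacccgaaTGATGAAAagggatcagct

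The stretch of SLC1A4 lies at chr2:64989381-64989410 on the plus strand. Its match crosses an annotated start inside the gene and lies outside any SLC1A4 exon of GENCODE release 29. Each match was compared with exons of its own gene only. That of SLC3A2, at chr11:62881719-62881748 on the plus strand, has its match in untranslated exon sequence just past a start inside the gene. That of SLC7A1, at chr13:29595663-29595692 on the minus strand, has its match in untranslated exon sequence just past the start of the gene. The SLC1A5 match, at chr19:46784893-46784922 on the minus strand, lies before an internal start, in sequence that other transcripts hold as an untranslated exon. The SLC38A1 match, at chr12:46266502-46266531 on the minus strand, crosses an internal start outside any GENCODE exon of SLC38A1. SLC7A5, SLC7A6, SLC38A2 and SLC6A9 held no such letters in these windows, which leave out most introns and distal sequence.

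An E-box, CACGTG, the core motif bound by MYC and its relatives, was found in 2 of the 15 windows. These were 1 each of SLC7A5 and SLC1A5, and 7.26% of all windows held it. In SLC7A5 it lies before the only start listed, at chr16:87869620-87869649 on the minus strand, and is shown because this gene had no match to the first element:
SLC7A5: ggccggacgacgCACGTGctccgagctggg

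The antioxidant response element core, TGACNNNGC on either strand (GCNNNGTCA on the other), was found in 5 of the 15 windows. These were 1 each of SLC1A5, SLC3A2, SLC7A1, SLC7A5 and SLC7A6, and 13.3% of all windows held it. No match of 1 element overlapped a match of another in these genes.

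In the comparison of the libraries, the heavy chain SLC3A2, the light chains SLC7A5 and SLC7A11, the neutral exchanger SLC1A4 and the glycine transporter SLC6A9 were lower in the knockdown library, by 1.27 to 2.30 times. The arginine transporter SLC7A1 and the neutral amino acid carrier SLC38A1 stood at 0.960 and 0.968 of the control level. Log2 ratios below are those of CPM, counts per 1000000 on TMM-scaled library sizes, in the knockdown over the control library. Their intervals are exact 95% intervals that cover counting error only, and no difference has a replicate check. Of the 10 transporter genes, 5 were at or below 0.8 of the control level and 0 were at least 25% above it. Of the 14559 genes measured (a mean of at least 1 CPM), 9.41% were at or below 0.8 and 8.28% at least 25% above, and these sizes are used throughout. At 1.5-fold or more only SLC6A9 was lower, against 2.29% of all genes, and it was also the gene past 2-fold, against 0.316%. A log2 ratio below 0 was found for 9 of the 10 transporters and for 51.6% of all genes. The median log2 ratio was −0.28 over the 10 transporters and −0.01 over all genes measured.

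**Figure D1:**
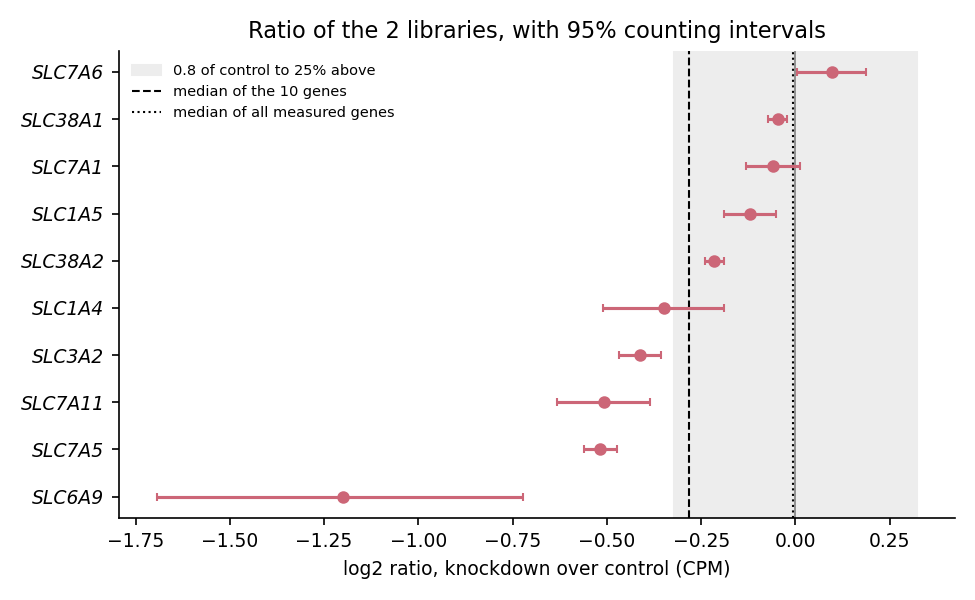
Log2 ratio of CPM in the knockdown over the control library for the 10 transporter genes, with 95% counting intervals as bars, the range from 0.8 of the control level to 25% above it shaded, and the medians of the 10 genes (dashed) and of all measured genes (dotted). SLC6A9, SLC7A5, SLC7A11, SLC3A2 and SLC1A4 lie left of the shaded range, and SLC7A6 is the single gene right of 0.

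Of the heterodimeric transporter genes, SLC3A2, SLC7A5 and SLC7A11 had similar ratios and SLC7A6 did not. SLC3A2, the CD98 heavy chain (chr11:62856109-62888860, plus strand, hg38), had 6012 counts (245 TPM) in the control and 4790 counts (187 TPM) in the knockdown library. Its log2 ratio was −0.41 (−0.47 to −0.36), lower than that of all but 5.63% of the genes measured. SLC7A5, its leucine-exchanging light chain also known as LAT1 (chr16:87830022-87869507, minus strand), had 10076 counts (211 TPM) in the control and 7464 counts (150 TPM) in the knockdown library. Its log2 ratio was −0.52 (−0.56 to −0.47), with 3.26% of genes lower. Its transcribed pseudogene SLC7A5P2 was counted 109 and 99 times, and how reads that match both were assigned is not known from these files.

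SLC7A11, the cystine importer xCT (chr4:138164097-138242349, minus strand), had 1269 counts (14.6 TPM) in the control and 946 counts (10.4 TPM) in the knockdown library. Its log2 ratio was −0.51 (−0.63 to −0.39), close to that of SLC7A5 although its level per length was far lower. The antisense gene SLC7A11-AS1, which overlaps it on the other strand, had 8 and 7 counts.

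SLC7A6, the light chain y+LAT2 (chr16:68264510-68301819, plus strand), went the other way. It had 1802 counts (29.9 TPM) in the control and 2043 counts (32.5 TPM) in the knockdown library, a log2 ratio of 0.10 (0.00 to 0.19). It shares its end with SLC7A6OS on the other strand, a gene with 1310 and 1408 counts, and reads in the shared stretch cannot be told apart without a stated strand setting.

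Ratios between transporters within a library do not depend on scaling. The ratio of SLC7A5 to SLC7A6 in TPM was 7.06 in the control library and 4.61 with knockdown, and the second stood at 0.653 of the first (0.609 to 0.701). The ratio of SLC3A2 to its light chains depended on the light chain. The TPM of SLC3A2 was 8.19 times that of SLC7A6 in the control library and 5.76 times with knockdown, a change of 0.703-fold (0.652 to 0.757). It was 1.16 times that of SLC7A5 in the control and 1.249 times in the knockdown library, a change of 1.08-fold (1.02 to 1.13). Against the summed TPM of the 6 light chain genes listed (SLC7A5, SLC7A6, SLC7A7, SLC7A8, SLC7A10 and SLC7A11), most of which was SLC7A5, SLC3A2 stood at 0.947 in the control library and 0.962 with knockdown. The ratio of SLC7A11 to SLC3A2 changed by 0.936-fold, with an interval of 0.852 to 1.03 that includes no change.

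**Figure D2:**
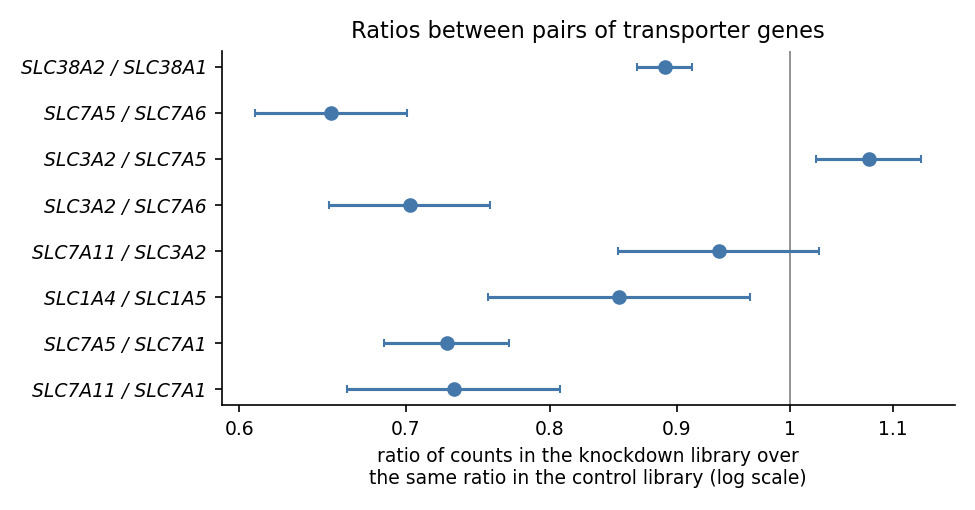
For pairs of transporter genes, the ratio of their counts in the knockdown library divided by the same ratio in the control library, on a log axis, with 95% counting intervals as bars. SLC7A5 over SLC7A6 is the lowest at 0.653, and the interval of SLC7A11 over SLC3A2 crosses 1.

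SLC7A1, the arginine and lysine transporter CAT1 that needs no heavy chain (chr13:29509410-29595688, minus strand), had 3158 counts (47.5 TPM) in the control and 3216 counts (46.4 TPM) in the knockdown library. Its log2 ratio was −0.06 (−0.13 to 0.01), so no difference was detectable at this depth. It held the element TGATGAAA shown above, as did SLC38A1 (log2 ratio −0.05). The other genes with a match to TGATGNAA were SLC1A5 (−0.12), SLC1A4 (−0.35) and SLC3A2 (−0.41). Whether the element bears on any of these ratios was not tested. The ratio of SLC7A5 to SLC7A1 changed by 0.727-fold (0.686 to 0.771) and that of SLC7A11 to SLC7A1 by 0.732-fold (0.663 to 0.808).

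Among the sodium-dependent neutral exchangers, SLC1A4 (ASCT1, which carries alanine, serine and cysteine; chr2:64988479-65023865, plus strand) had 704 counts (16.8 TPM) in the control and 586 counts (13.4 TPM) in the knockdown library. Its log2 ratio was −0.35 (−0.51 to −0.19), just below 0.8 of the control level, and its interval reaches above 0.8. The overlapping LOC107984063 on the other strand had 83 and 61 counts. SLC1A5 (ASCT2, the glutamine exchanger; chr19:46774883-46788594, minus strand) had 3456 counts (123 TPM) and 3371 counts (115 TPM), a log2 ratio of −0.12 (−0.19 to −0.05), with 28.5% of genes lower. The ratio of SLC1A4 to SLC1A5 changed by 0.853-fold (0.756 to 0.963), so the difference between these paralogs exceeded counting error by a small margin.

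SLC38A1 and SLC38A2 are neighbouring paralogs on chromosome 12, with 89038 bases between their annotated ends, and both encode carriers of small neutral amino acids. SLC38A1 (SNAT1; chr12:46183063-46269149, minus strand) had 22945 counts (234 TPM) in the control and 23548 counts (230.0 TPM) in the knockdown library, a log2 ratio of −0.05 (−0.07 to −0.02). SLC38A2 (SNAT2; chr12:46358188-46372774, minus strand) had 25172 counts (590.3 TPM) and 22995 counts (517 TPM), a log2 ratio of −0.22 (−0.24 to −0.19). SLC38A2 is the member of this pair that is known to be induced when amino acids run short. The SLC38A2 to SLC38A1 ratio in TPM went from 2.53 in the control to 2.25 in the knockdown library, a change of 0.890-fold (0.868 to 0.913). Both genes stayed above 0.8 of the control level.

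SLC6A9, the glycine transporter GLYT1 (chr1:43996483-44031462, minus strand), had the lowest ratio and the fewest counts. It had 117 counts (3.38 TPM) in the control and 54 counts (1.497 TPM) in the knockdown library, a level of 0.435 times the control (0.309 to 0.606) and a log2 ratio of −1.20 (−1.69 to −0.72). Of all genes measured, 0.151% were lower. CCDC24 on the other strand had 191 and 208 counts, more than SLC6A9 itself. The stretch that the 2 genes share is short, from 43996483 to 43996528 at the end of SLC6A9. How many of the reads given to SLC6A9 came from CCDC24 was not tested.

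The order of the levels per length was nearly the same in both libraries. In TPM the control ran SLC38A2, SLC3A2, SLC38A1, SLC7A5, SLC1A5, SLC7A1, SLC7A6, SLC1A4, SLC7A11 and SLC6A9, and in the knockdown library SLC38A1 and SLC3A2 changed places. Exact Poisson intervals of neighbours in this order did not overlap in either library, and they cover counting error only. SLC38A2 made up 38.9% of the summed TPM of the 10 genes in the control library and 39.7% with knockdown. The sum was 1515 TPM in the control and 1304 TPM in the knockdown library, 13.9% lower. Of that difference of 211 TPM, SLC38A2 accounted for 72.9, SLC7A5 for 61.1 and SLC3A2 for 57.7 TPM. SLC38A2 therefore carried the largest absolute difference with a ratio nearer to 1 than those of the other pair.

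**Figure D3:**
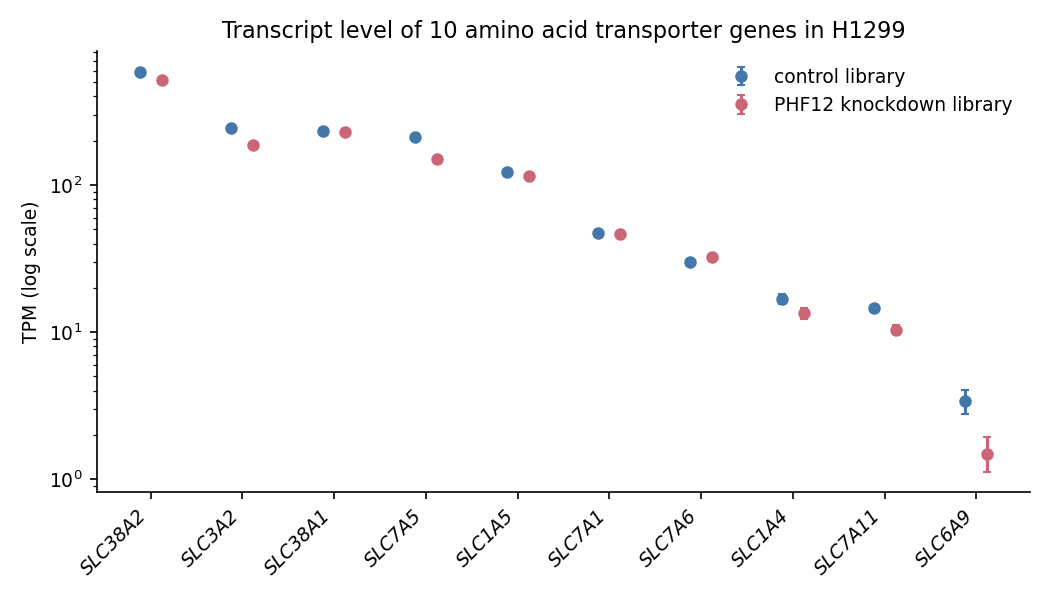
TPM of the 10 transporter genes in the control and the knockdown library on a log axis, with exact 95% Poisson intervals as bars, which are hidden by the points where counts are high. Levels run from 590.3 TPM for SLC38A2 in the control to 1.497 TPM for SLC6A9 in the knockdown library.

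The other amino acid transporters were described in the same way. A list of 60 further genes covered the remaining plasma membrane, lysosomal and mitochondrial carriers of amino acids, of which 33 were measured and 12 were at 0 in both libraries. Of the 33, 4 (12.1%) were at or below 0.8 of the control level and 4 at least 25% above it. Of the same 33, 18 lay below 0, and the median log2 ratio was −0.01. Over all genes measured these shares were 9.41%, 8.28% and 51.6%. The 4 lower genes were SLC7A10, SLC43A1, SLC6A17 and SLC43A2, of which SLC7A10 passed the filter on low values through the control library alone. The 194 other measured protein-coding SLC genes had a median of −0.02. Of these, 24 (12.4%) were at or below 0.8 of the control level and 18 at least 25% above it. Whether the 10 transporters differ from these lists was not tested, since the 10 were chosen with results of these libraries known.

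Of 13 other cationic and heterodimeric carriers and their kin, 6 were measured, with a median log2 ratio of −0.25. Of these, 3 were at or below 0.8 of the control level and 1 was at least 25% above it. Over all genes measured the shares were 9.41% and 8.28%. Both the median and the count of lower genes include SLC7A10, which was measured only through its control level, so neither describes the list well. SLC43A1, a uniporter of large neutral amino acids (LAT3), was counted 213 and 126 times, a log2 ratio of −0.84 (−1.17 to −0.52). Its paralog SLC43A2 (LAT4) was counted 223 and 189 times, at 0.799 of the control level and a log2 ratio of −0.32 (−0.61 to −0.04). SLC7A2, the cationic transporter CAT2, was higher, counted 302 and 418 times, at a log2 ratio of 0.38 (0.17 to 0.60). SLC3A1, the other heavy chain gene, was counted 659 and 781 times, a log2 ratio of 0.16 (0.01 to 0.31), opposite in sign to SLC3A2. SLC7A10, a light chain for small neutral amino acids, had a log2 ratio of −1.74 (−2.72 to −0.84) on only 44 and 14 counts, and was named after its value was seen. At 1.78 CPM in the control library and 0.535 CPM with knockdown, it was measured only through its control level, and at this knockdown level it could enter the list only as a lower gene.

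Of the sodium-coupled carriers outside the 10, 6 of 17 were measured, and their median log2 ratio was 0.12. SLC38A7, a glutamine carrier of the lysosome, was counted 842 and 1139 times, a log2 ratio of 0.35 (0.22 to 0.48), and SLC38A6 was counted 216 and 293 times, a log2 ratio of 0.36 (0.10 to 0.62). SLC6A17, known from synaptic vesicles, was counted 173 and 133 times, a log2 ratio of −0.46 (−0.80 to −0.13). The SLC38 family thus held members above and below 0 in these libraries, as did the genes measured as a whole (51.6% below 0).

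The proton-coupled and lysosomal list (7 of 11 measured) had 0 genes at or below 0.8 of the control level and 0 at least 25% above it. Its median was −0.01, and over all genes measured 9.41% and 8.28% passed these sizes. CTNS, the lysosomal cystine exporter, stood at 0.21 (0.06 to 0.37), SLC66A1, the lysosomal exporter of cationic amino acids, at 0.19 (0.10 to 0.29) and SLC36A1 at −0.25 (−0.36 to −0.14). Of 13 measured mitochondrial carriers, 0 were at or below 0.8 of the control level and 1 was at least 25% above it: SLC25A44, which carries branched-chain amino acids, counted 969 and 1449 times, at a log2 ratio of 0.50 (0.38 to 0.61). SLC25A40, a carrier linked to mitochondrial glutathione import, stood at −0.31 (−0.46 to −0.16) and the glutamate carrier SLC25A22 at −0.21 (−0.32 to −0.09). Of the glutamate transporters of the SLC1 family outside the 10, only SLC1A1 was measured, with 68 and 70 counts.

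**Figure D4:**
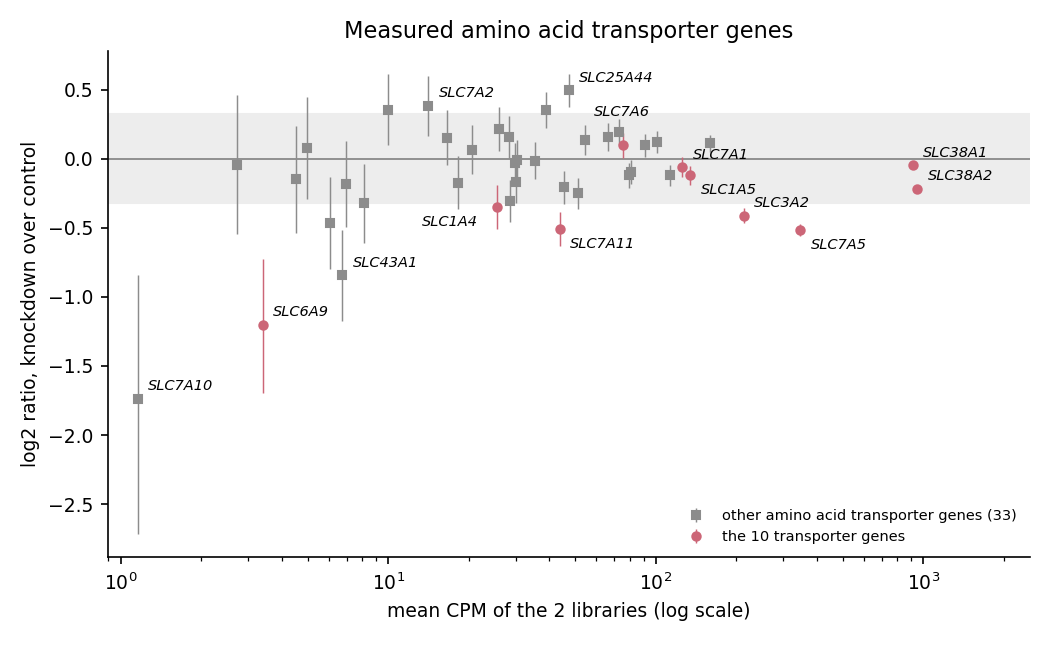
Log2 ratio of knockdown over control against the mean CPM of the libraries (log axis) for the 10 transporter genes (circles) and 33 other measured amino acid transporter genes (squares), with 95% counting intervals as bars and the range from 0.8 of the control level to 25% above it shaded. SLC7A5, SLC3A2, SLC7A11, SLC1A4 and SLC6A9 lie below the shaded range, and 4 of the other genes lie below it and 4 above.

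Regulators and feedback genes of the amino acid response were also lower in part. Of 20 listed, 9 were at or below 0.8 of the control level, 0 at least 25% above it and 12 below 0, with a median of −0.24. Among all genes measured, 9.41% were at or below 0.8, 8.28% at least 25% above and 51.6% below 0. CHAC1, which degrades glutathione, was counted 1670 and 988 times, a log2 ratio of −0.84 (−0.96 to −0.73). DDIT4, an inhibitor of mTORC1, stood at −0.76 (−0.83 to −0.68) and the transcription factor CEBPB at −0.73 (−0.81 to −0.65). EIF2AK2, a kinase of the translation factor eIF2 activated by double-stranded RNA, stood at 0.25 (0.17 to 0.33), and EIF2S1, the alpha subunit of eIF2, at 0.12 (0.07 to 0.18).

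Of 25 measured enzymes that make or use the transported amino acids, 8 (32.0%) were at or below 0.8 of the control level. Of these enzymes, 0 were at least 25% above it and 22 lay below 0, with a median of −0.22. The shares over all genes measured were 9.41%, 8.28% and 51.6%. CTH, which makes cysteine, stood at −0.86 (−1.12 to −0.60), the asparagine synthetase ASNS at −0.52 (−0.58 to −0.45) and PHGDH, which opens serine synthesis, at −0.49 (−0.59 to −0.40). The ratios of ASNS, SLC7A5 and SLC7A11 were thus alike in size. GLDC, which breaks down glycine, stood at 0.23 (0.13 to 0.33), and the transaminase GPT2 at 0.12 (0.01 to 0.23).

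Differences of the size seen in the transporters were not limited to amino acid genes. KRT8 was counted 22927 and 18484 times, a log2 ratio of −0.40 (−0.42 to −0.37), and KRT18 was counted 29132 and 24582 times, with one of −0.33 (−0.35 to −0.31). PHF12 itself stood at −0.41 (−0.55 to −0.27), the same as SLC3A2 to 2 decimals, and 5.74% of the genes measured were lower than PHF12. The part of any of these in the transporter values was not tested.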

How the data were processed

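Poly(A)-selected mRNA was sequenced as paired-end reads, per the labels' protocols. The submitters' processing notes name HISAT2, HTSeq and hg38; the sources used here give neither versions nor annotation nor strand setting. The authors deposited, per the file headers, a raw count and a TPM value per gene. TPM rebuilt from counts and listed lengths differed by at most 2.5e-11. TPM comparisons between genes rest on those lengths.

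Groups came from the treatment label, and columns were matched by sample title. TMM factors were computed on all genes with edgeR 4.0.16 (R 4.3.3). Genes were kept if their mean CPM was at least 1. Ratios carry no pseudocount, and intervals are exact conditional Clopper-Pearson 95% intervals for Poisson counts. Changes in ratios between genes carry exact conditional odds ratio intervals. With 1 library per group no test was made, and a level at or below 0.8 of the control, or at least 25% above it, replaced it. The code was run on simulated Poisson counts with set folds. These hold no spread between cultures, so they cannot show how the intervals fare with replicate spread. Python 3.11.15, scipy 1.17.1 and matplotlib 3.10.9 were used.

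The members, lists, fold sizes, motifs and gene pairs were chosen with earlier results of these data known. Genes eligible for naming in each list other than the markers had a mean CPM of at least 5 and an interval that excludes 0. Up to 3 lowest and 2 highest of them were considered, and not every one was named. SLC7A10, SLC1A1 and SLC38A9 were named outside this rule. Alternatives were other scalings (DESeq2 1.42.0 size factors among them), pseudocounts, filters, units, fold sizes and depth.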

Additional observations from a re-analysis of the deposited data

How the results depend on the processing

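Settings tried were scaling by total counts or DESeq2 size factors, pseudocounts of 0.5 and 1 CPM, deposited TPM, a mean of at least 5 CPM, no filter on low values, a table cut to protein-coding genes, and the knockdown library thinned to the depth of the control. Under these, all 60 values of single transporters that a setting could move stayed within their main counting intervals; filters on genes cannot move them. The median of the 10 lay between −0.30 and −0.26, and that of the 9 left at 5 CPM was −0.22. The number of them at or below 0.8 of the control level was 5, or 4 of 9 with a minimum of 5 CPM, which SLC6A9 did not pass. Over all genes that share ran from 6.28% at 5 CPM to 9.51% with thinning, apart from the setting without the expression filter. SLC6A9 moved most, from −1.20 to −0.91 with a pseudocount of 1 CPM. With a size of at least 1.5-fold or 2-fold in place of 0.8 of the control level, the number of lower transporters was 1 each. Among the other amino acid transporters the number went from 4 to 2 (SLC43A1 and SLC7A10) and 1 (SLC7A10). SLC7A10 was measured only through its control level, so these counts do not describe the list well. Over all genes measured the shares at these sizes were 2.29% and 0.316%. At or below 0.8 of the control level, the other amino acid transporters numbered 3 under both other scalings, both pseudocounts, deposited TPM and thinning. These left out SLC43A2, which stood at 0.799 of the control level. The number was also 3 at 5 CPM, without SLC7A10. Without the expression filter that number was 12 of 48, since genes with a few counts enter, and 20.8% of all genes were then that much lower. No paired analysis was possible because each group has 1 library. Replicate spread is unknown, and the depth allows a counting error of 9.25% for SLC6A9 in the control library, 13.6% for the same gene in the other, and 0.630% for SLC38A2 in the control.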

Other observations

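Genes through which mTORC1 senses amino acids lay on both sides of 0, as did the genes measured as a whole. Of 31 listed, all measured, 4 (12.9%) were at or below 0.8 of the control level and 3 at least 25% above it. Over all genes measured these shares were 9.41% and 8.28%. Of the 31, 14 lay below 0, against 51.6% of all genes, with a median log2 ratio of 0.02. SESN2, a leucine sensor of the sestrin family, was counted 2476 times in the control library and 1676 times in the other, a log2 ratio of −0.65 (95% counting interval −0.74 to −0.56), while its paralog SESN1 had 291 and 412 counts and one of 0.42 (0.20 to 0.64). CASTOR2, of the family of arginine sensors, stood at 0.42 (0.28 to 0.56), and MIOS and NPRL2, subunits of the GATOR complexes, at −0.39 (−0.54 to −0.24) and −0.35 (−0.58 to −0.13). The lysosomal arginine sensor SLC38A9 was counted 744 and 773 times, a log2 ratio of −0.03 (−0.18 to 0.12).

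Of 12 glutathione and cystine-related genes, 2 (16.7%) were at or below 0.8 of the control level (CHAC1 and NFE2L2), against 9.41% of all genes measured. CHAC1 was also counted among the lower genes of the amino acid response list. Of the 12, 10 lay below 0, against 51.6% of all genes, with a median of −0.14. NFE2L2, the transcription factor NRF2, was counted 3122 and 2619 times, a log2 ratio of −0.34 (−0.41 to −0.26), the glutathione peroxidase GPX4 stood at −0.26 (−0.31 to −0.21), and KEAP1, the inhibitor of NRF2, at 0.08 (0.01 to 0.15).

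The 7-base words ACATCGA and CATCGAA, found in an earlier search of these libraries to be frequent in the 3′ untranslated regions of lower genes, both occurred in the longest annotated region of SLC38A1 (GENCODE release 29, 5910 bases), whose log2 ratio was −0.05. None of the other 9 transporters held either word, while 2.71% of 12325 measured protein-coding genes held at least 1 of them. The words frequent in higher genes, TCGGAGA and ATCGGAG, were in 0 of the 10 transporters and in 3.10% of the same genes. Since the words were found in this same comparison, these values are a description.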
